A study of Mus musculus with 8 samples.

Results

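The OAS family of the mouse comprises the interferon-induced 2′-5′ oligoadenylate synthetases and their OAS-like relatives, and 8 of its genes were followed here through RNA-seq libraries of cultured osteoclasts: Oas1a, Oas1b, Oas1c, Oas1g, Oas2, Oas3, Oasl1 and Oasl2. They were chosen by symbol, and all 8 were found by Ensembl identifier among the 46517 genes of the deposited table. Each reached a normalized count of 10 or more in 4 or more libraries, the filter on low values, as did 14139 genes in all. The libraries came from osteoclasts, the bone-degrading multinucleated cells, of 4 Elmo1-/- and 4 Elmo1+/- mice aged 6 to 8 weeks, numbered 1 to 4 in each genotype. Both genotypes received the same treatment, 7 days with GST-RANKL at 50 ng/ml, in cultures started from non-adherent bone marrow cells in 10% L929-conditioned medium, which supplies M-CSF. The methods place a period in that medium alone before RANKL, which the labels do not mention. The control libraries are titled wild-type, but their genotype label is Elmo1+/-, so they lack 1 copy of Elmo1, the gene of an adaptor protein that works with DOCK proteins to activate the GTPase Rac. The labels do not tell which mice shared an experiment. Where 4 values of a genotype are listed, they follow the mouse numbers, 1 to 4.

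OAS enzymes are sensors of viral infection. On binding double-stranded RNA they join ATP into 2′-5′-linked oligoadenylates, known as 2-5A, a second messenger that sets off the breakdown of cellular and viral RNA. OAS genes are kept low in resting cells and are induced by type I interferon through the factor ISGF3. Mice carry an expanded set of Oas1 genes, and some family members, Oasl1 among them, have no synthetase activity. In osteoclast precursors, interferon-β is known as a brake that RANKL itself induces.

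All members lie on chromosome 5 (GENCODE M21, GRCm38). Oasl2 (114896936 to 114912234) and Oasl1 (114923240 to 114937915) are neighbours on the plus strand. The others form a second cluster: Oas2 (120730333 to 120749853), Oas3 (120753098 to 120777661), Oas1c (120800194 to 120812514), Oas1g (120876142 to 120887613) and Oas1a (120896256 to 120907521) on the minus strand, and Oas1b (120812635 to 120824163) on the plus strand. Oas1b is annotated as a polymorphic pseudogene, because laboratory strains differ in whether it encodes a full protein. Oas1b and Oas1c are divergent, with starts 121 bases apart.

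RefSeq promoters (GRCm38.p6) were at hand for 6 of the 8 members, all but Oas1b and Oas2. They are shown as background, and whether the matches bear on the values of the members was not tested. Each line gives the 120 bases before the RefSeq start, read in the direction of the gene. Capitals mark matches, on either strand, to GAAANNGAAA, the core of the interferon-stimulated response element that ISGF3 and interferon regulatory factors bind.
Oas1a, chr5:120907526-120907645, minus strand: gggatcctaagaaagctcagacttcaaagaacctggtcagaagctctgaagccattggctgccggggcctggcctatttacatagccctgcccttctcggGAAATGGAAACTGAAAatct
Oas1g, chr5:120887614-120887733, minus strand: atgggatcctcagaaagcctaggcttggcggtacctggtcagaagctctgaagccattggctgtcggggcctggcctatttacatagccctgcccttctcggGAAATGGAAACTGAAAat
Oas1c, chr5:120812515-120812634, minus strand: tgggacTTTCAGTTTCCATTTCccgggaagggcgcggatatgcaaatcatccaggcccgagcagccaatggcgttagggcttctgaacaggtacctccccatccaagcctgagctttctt
Oas3, chr5:120777660-120777779, minus strand: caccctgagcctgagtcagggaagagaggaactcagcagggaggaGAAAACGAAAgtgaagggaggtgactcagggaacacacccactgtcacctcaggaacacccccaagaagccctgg
Oasl1, chr5:114923120-114923239, plus strand: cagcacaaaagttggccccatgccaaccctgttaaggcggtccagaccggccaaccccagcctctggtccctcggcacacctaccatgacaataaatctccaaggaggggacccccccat
Oasl2, chr5:114896814-114896933, plus strand: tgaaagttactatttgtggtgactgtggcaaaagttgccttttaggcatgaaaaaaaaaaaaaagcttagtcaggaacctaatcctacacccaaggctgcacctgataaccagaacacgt

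Of the 6 windows of 300 bases (250 before to 50 after the start), 4 held a match, beside 1131 of all 32851 RefSeq promoter windows of that length (3.44%). Oas1a and Oas1g each had a pair of overlapping matches, GAAATGGAAA and GAAACTGAAA, that together ran from 20 to 5 bases before the start in Oas1a and from 18 to 3 in Oas1g. Oas1c carried the same pair on the opposite strand, from 114 to 99 bases before its own start. These bases lie 22 to 7 bases before the annotated start of Oas1b and read in its direction. Oas3 had 1 match, 75 to 66 bases before its start. The letters searched are not in the windows of Oasl1 and Oasl2.

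The deleted gene was read first. Elmo1 measured 274, 287, 316 and 291 normalized counts in Elmo1-/- osteoclasts and 1528, 1423, 1769 and 1651 in the controls, so the genotypes did not overlap (log2 fold change -2.44, standard error 0.09, adjusted p = 8.4e-06, limma with Benjamini-Hochberg adjustment). Reads on genes numbered 20905502 to 40846651 per library. The first principal component, with 62.3% of the variance, set the libraries numbered 1 and 2 of both genotypes apart from those numbered 3 and 4. Of the osteoclast markers, 10 of 10 passed the filter. Their summed normalized counts were between 450909 and 1173015 in Elmo1-/- and between 589401 and 1091130 in Elmo1+/- libraries, lower in the libraries numbered 1 and 2, and lowest in Elmo1-/- mouse 1. The library of Elmo1-/- mouse 1 also stood highest for the members, so results are given with and without it.

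Every OAS gene was highest in Elmo1-/- mouse 1, at 1.61 to 2.48 times the mean of the other 7 libraries. Apart from that library the genotypes overlapped throughout, and no member passed the threshold between genotypes. Oas3 and Oasl1 had the largest genotype differences and the most that remained without that mouse, while the differences of the Oas1 genes and Oas2 were then close to 0. A positive log2 fold change, on log2(normalized count + 1), is higher in Elmo1-/-, and the tests are limma over all 14139 genes with Benjamini-Hochberg adjustment. Since these are bulk cultures, fewer or more cells of a type and less or more RNA per cell cannot be told apart.

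**Figure D1:**
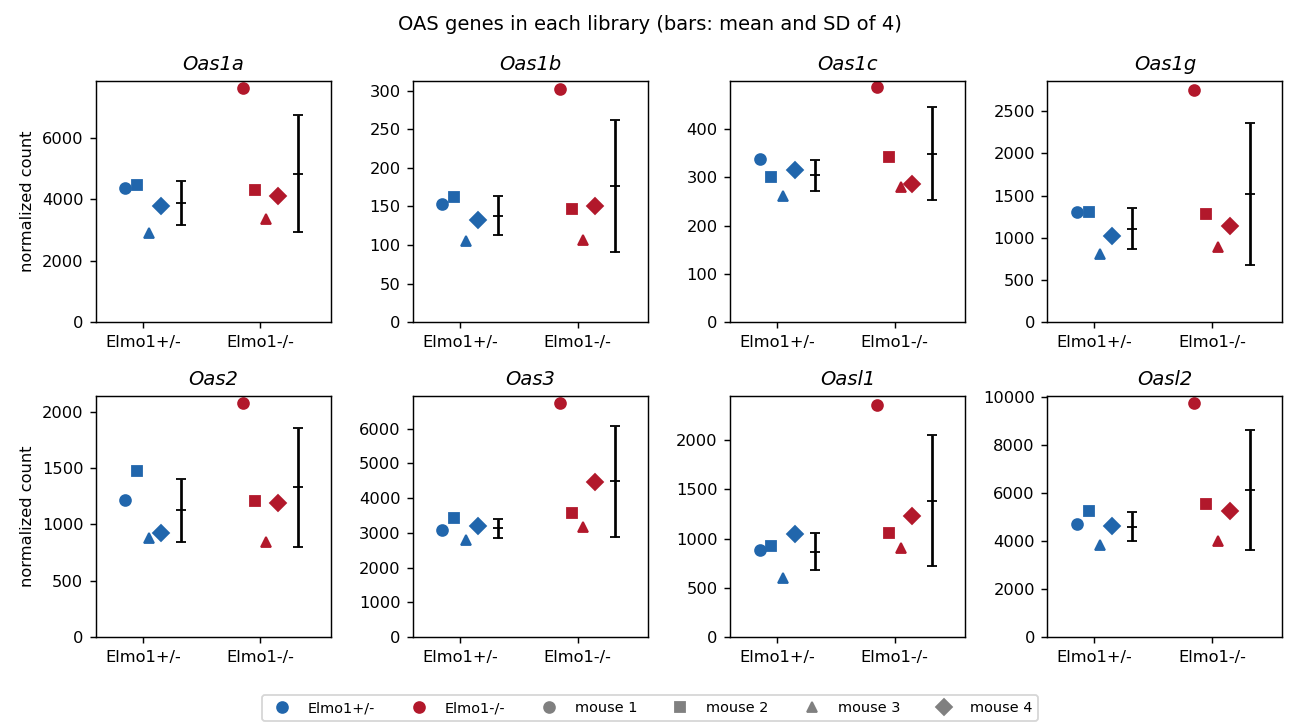
Normalized counts of the 8 OAS genes (one panel each, axes from 0) in the 4 Elmo1+/- libraries (blue) and the 4 Elmo1-/- libraries (red), with the mouse number as marker shape and the mean and SD of 4 as bars. Elmo1-/- mouse 1 (red circle) is the highest of 8 in every panel, and the other 3 Elmo1-/- libraries lie among or close to the Elmo1+/- libraries.

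Among the synthetases of the Oas1 group, which have a single catalytic unit, Oas1a (ENSMUSG00000052776) had the most reads. In Elmo1-/- libraries it reached normalized counts of 7609, 4296, 3358 and 4091, against 4370.3, 4450.1, 2911 and 3775 in Elmo1+/-. Mouse 1 of Elmo1-/- stood alone at the top, and the other 3 fell inside the Elmo1+/- range. The means were 4838 ± 1890.3 (SD, n = 4) and 3877 ± 711 (SD, n = 4), and the log2 fold change of 0.27 (standard error 0.24) did not pass (adjusted p = 1.00, limma). Without Elmo1-/- mouse 1 the Elmo1-/- mean was 3915 ± 493 (SD, n = 3) and the log2 fold change 0.03 (standard error 0.16).

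Oas1g (ENSMUSG00000066861), the closest relative of Oas1a, ran in parallel with it. It measured 2753, 1285, 888 and 1146 in Elmo1-/-, against 1308, 1311, 804 and 1020.3 in Elmo1+/-. The log2 fold change was 0.34 (standard error 0.33), and 0.0059 (standard error 0.19) without Elmo1-/- mouse 1. The coding sequences of Oas1a and Oas1g were identical at 96.7% of 1101 aligned bases, and 862 of their 75-base windows (47.6% of those of Oas1a and 36.9% of those of Oas1g) occurred in both. How reads that match both genes were counted was not given in the sources used here, so the split between Oas1a and Oas1g is uncertain. The other pairs of Oas1 members were identical at 73.8% to 79.9% of aligned coding bases.

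Oas1b (ENSMUSG00000029605), the gene behind inherited resistance of some mice to flaviviruses, was the lowest member, at 302, 147, 107 and 151 in Elmo1-/-, against 154, 162, 105 and 132 in Elmo1+/-. Outside Elmo1-/- mouse 1 the genotypes shared one range, and the log2 fold change was 0.26 (standard error 0.30), or -0.032 (standard error 0.19) without that mouse. Oas1c (ENSMUSG00000001166) measured 487, 341, 279.6 and 287 in Elmo1-/-, against 338, 302, 262 and 314 in Elmo1+/-. Relative to the mean, its values varied least over all libraries. Among the Elmo1+/- mice alone Oas3 varied less, with an SD of 8.68% of the mean against 10.5% for Oas1c. The genotype difference was the smallest of the family on the log2 scale, 0.17 (standard error 0.18), or -0.0060 (standard error 0.12) without Elmo1-/- mouse 1. Oas1c shares 227 exonic bases with the antisense gene Gm43069, and the sources used here do not say whether the counting used strand. The 4 further Oas1 genes of the annotation were at or near 0: Oas1e had no read in any library, and Oas1d, Oas1f and Oas1h had at most 3, 2 and 6 reads in a library.

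Oas2 (ENSMUSG00000032690), which carries a pair of OAS units, had 2076, 1210.4, 841 and 1189 in Elmo1-/-, against 1219, 1471, 877 and 928 in Elmo1+/-. Elmo1+/- mouse 2 was the second highest of the 8, and the log2 fold change was 0.20 (standard error 0.27), or -0.045 (standard error 0.20) without Elmo1-/- mouse 1. Oas3 (ENSMUSG00000032661), the longest synthetase, with several OAS units and a preference for long double-stranded RNA, had 6745, 3577, 3179 and 4459 in Elmo1-/-, against 3092, 3437, 2783 and 3207 in Elmo1+/-. Here 3 of the 4 Elmo1-/- libraries lay above every Elmo1+/- library, and Elmo1-/- mouse 3 lay within the Elmo1+/- range. The means were 4490.2 ± 1596 (SD, n = 4) and 3129.9 ± 272 (SD, n = 4). The log2 fold change of 0.46 (standard error 0.21) had an unadjusted p of 0.0556 and an adjusted p of 1.00 by limma, and the exact two-sided permutation test over the 70 arrangements gave p = 0.0857. With mouse 1 of Elmo1-/- left out it was 0.25 (standard error 0.12, unadjusted p = 0.0761 and adjusted p = 0.936, limma).

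Of the OAS-like genes, Oasl1 (ENSMUSG00000041827), known in mice as a translational inhibitor of IRF7, had 2358, 1054, 904 and 1226 in Elmo1-/-, against 887, 929.4, 601 and 1042 in Elmo1+/-. Again 3 of 4 Elmo1-/- libraries lay above every Elmo1+/- library, and mouse 3 of Elmo1-/- did not. The means of 1385 ± 662 (SD, n = 4) and 865 ± 188 (SD, n = 4) gave the largest log2 fold change of the family, 0.60 (standard error 0.29, unadjusted p = 0.0702 and adjusted p = 1.00, limma), with p = 0.114 in the exact permutation test. With mouse 1 of Elmo1-/- left out it was 0.31 (standard error 0.19, unadjusted p = 0.134, limma). Oasl1 shares 38 exonic bases with the antisense gene Gm13822, which had at most a normalized count of 67.2. Oasl2 (ENSMUSG00000029561), an OAS-like protein that keeps synthetase activity in mice, had 9760.1, 5568, 4009.9 and 5276 in Elmo1-/-, against 4719.7, 5267, 3831 and 4642 in Elmo1+/-. Elmo1-/- mice 2 and 4 exceeded every Elmo1+/- library by little. The log2 fold change was 0.34 (standard error 0.24), and 0.10 (standard error 0.14) without Elmo1-/- mouse 1.

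Thus 0 of the 8 members passed an adjusted p of 0.05 by limma, where 1 of 14139 genes did, Elmo1 (0.00707%), and 0 of 8 had an unadjusted p under 0.05, where 0.53% of genes did in the higher direction. Neither edgeR nor DESeq2 on the recovered reads called a member after adjustment. At an unadjusted p under 0.05, edgeR had 1 member higher, Oas3 (unadjusted p = 0.0392, adjusted p = 1.00), against 0.545% of all genes. DESeq2 had 2 higher, Oas3 (unadjusted p = 0.0215) and Oasl1 (unadjusted p = 0.0255, adjusted p = 1.00 for both), against 0.552%. The genotypes did not overlap in 0 of the 8 members and in 0.941% of all genes. Leaving out Elmo1-/- mouse 1, 0 members and 1.21% of all genes were higher at an unadjusted p under 0.05. The median log2 fold change of the 8 members was 0.30, beside a median of 0.00 over all genes tested. Leaving that mouse out, it was 0.02, beside 0.01 over all genes, and 5 of the 8 values were above 0. Elmo1-/- mouse 1 was the highest library for 27.1% of all genes and for all 8 members.

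The Elmo1-/- mean over the 4 mice was also divided by the sum of both genotype means, so that equal means give 0.5. A ratio of this form was used in the study within groups of mice that the labels do not identify, so the inputs here, all 4 mice of a genotype, differ from its own. Over these 4 mice the ratio was 0.616 for Oasl1, 0.589 for Oas3, 0.577 for Oas1g, 0.571 for Oasl2, 0.561 for Oas1b, 0.555 for Oas1a, 0.542 for Oas2 and 0.534 for Oas1c. Without Elmo1-/- mouse 1 Oasl1 and Oas3 kept the top places, at 0.551 and 0.544, with Oasl2 at 0.518, and the other 5 lay between 0.490 and 0.503. Oasl1 and Oas3 are in the gene list that the study chose on these samples, so that list is not independent evidence of their direction.

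Within replicate number 1 every member was higher in the Elmo1-/- mouse, and in the other numbers 4, 7 and 7 of the 8 were. In number 1 the log2 difference, Elmo1-/- minus Elmo1+/-, was positive for all members, from 0.52 for Oas1c to 1.41 for Oasl1, with a median of 1.01. In number 2 it lay between -0.28 for Oas2 and 0.18 for Oasl1 (median 0.01), and 4 of the 8 members were lower in the Elmo1-/- mouse: Oas1a, Oas1b, Oas1g and Oas2. In number 3 it ran from -0.06 for Oas2 to 0.59 for Oasl1 (median 0.12), with 7 of 8 higher in the Elmo1-/- mouse and Oas2 lower. In number 4 it ran from -0.13 for Oas1c to 0.48 for Oas3 (median 0.19), again with 7 of 8 higher and here Oas1c lower. The medians of these differences over all 14139 genes were -0.01, 0.00, 0.00 and 0.01.

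**Figure D2:**
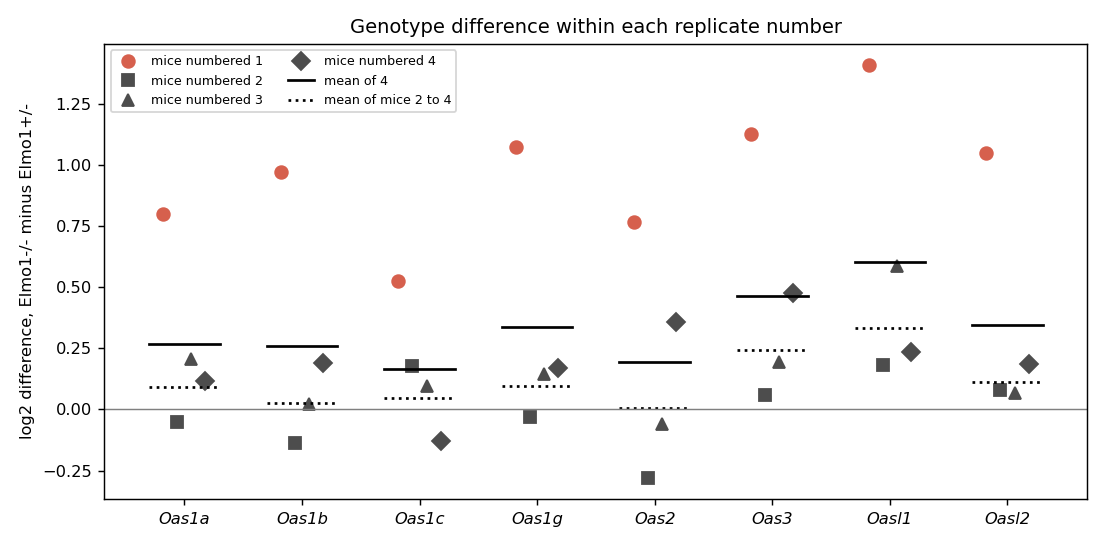
Log2 difference of Elmo1-/- minus Elmo1+/- for each OAS gene within mice numbered 1 (red circles), 2, 3 and 4 (grey), with the mean of 4 as a line and the mean of mice 2 to 4 as a dotted line. The differences of number 1 are 0.52 to 1.41 and stand above the rest for every gene, and the dotted lines of Oas3 and Oasl1 are the highest.

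With the deposited size factors, Oas3, Oasl1 and Oasl2 were higher in Elmo1-/- in all 4 numbers, 3 of 8 members beside 4.70% of all genes. The mean difference was 0.60 ± 0.57 (SD, n = 4 pairs) for Oasl1, 0.46 ± 0.47 for Oas3 and 0.34 ± 0.47 for Oasl2. The exact sign permutation test gave p = 0.125 for each of the 3, the smallest p that 4 pairs allow. Over numbers 2 to 4 alone the means were 0.33 ± 0.22 (SD, n = 3 pairs) for Oasl1, 0.24 ± 0.21 for Oas3 and 0.11 ± 0.06 for Oasl2, and those of the other members lay between 0.00 and 0.09. When the libraries were scaled to equal totals instead of by the deposited size factors, Oas1a and Oas1g also became higher in all 4 numbers, by 0.01 and 0.03 in number 2. With the replicate number as a block in limma, 1 member, Oasl1, had an unadjusted p under 0.05 (unadjusted p = 0.0429), beside 1.29% of all genes in that direction, and Oas3 had an unadjusted p = 0.0501. With the library set (numbers 1 and 2 against 3 and 4) as a term instead, Oas3 (unadjusted p = 0.0376) and Oasl1 (unadjusted p = 0.0457) were under 0.05, beside 1.32% of all genes. No member passed after adjustment in either fit. Within numbers 1 and 2 the mean log2 difference of the members was 0.24 to 0.79, and within numbers 3 and 4 it was -0.02 to 0.41, largest for Oasl1 in both.

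The members also differed between library sets inside the control genotype. In Elmo1+/- mice the mean of numbers 1 and 2 was 1.49 times that of numbers 3 and 4 for Oas2, 1.44 times for Oas1g, 1.33 times for Oas1b and 1.32 times for Oas1a. The ratio was smaller for Oasl2 (1.18), Oas1c (1.11), Oasl1 (1.11) and Oas3 (1.09). Elmo1+/- mouse 3 was the lowest of the 8 libraries for 7 members, and Elmo1-/- mouse 3 was the lowest for Oas2.

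Between paralogs, levels can be set side by side only per length, so normalized counts were divided by the merged exons of each gene in kb. Oas1a was the highest in all 8 libraries, with 2312 ± 753 per kb (SD, n = 8 libraries of both genotypes). Oasl2 followed with 845 ± 294, then Oas1g with 562 ± 262, Oas3 with 539 ± 182, Oasl1 with 431 ± 203, Oas2 with 275 ± 90.8, Oas1c with 136 ± 29.4 and Oas1b with 79.1 ± 31.2. The highest mean was thus 29.2 times the lowest. The spread here is mostly that of Elmo1-/- mouse 1, so neighbours in this order were compared within each library.

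Of the 7 neighbour pairs, 6 kept one order in 8 of 8 libraries (exact two-sided sign permutation test, p = 0.00781, the smallest that 8 libraries allow, Benjamini-Hochberg adjusted p = 0.00911 over the 7 pairs). Because the order was taken from these same libraries, the test measures only how repeatably they kept it. Errors in the lengths or in the assignment of reads are common to all libraries and are not covered by it. Within a library Oas1a was on average 2.75 times Oasl2, Oasl2 was 1.55 times Oas1g, and Oas3 was 1.29 times Oasl1. Oasl1 was 1.52 times Oas2, Oas2 was 1.98 times Oas1c, and Oas1c was 1.78 times Oas1b. Oas1g and Oas3 did not differ beyond their spread (1.01-fold, Oas1g higher in 4 of 8 libraries, adjusted p = 0.883, exact permutation test), with a log2 difference of 0.01 ± 0.27 (SD, n = 8). Dividing by the longest annotated transcript instead set Oas3 above Oas1g in 7 of 8 libraries (1.25-fold, adjusted p = 0.0156, exact permutation test) and raised Oasl2 from 845 to 1724 per kb, since its merged exons (6374 bases) far exceed its longest transcript (3123 bases). The order of the others did not change. The places of Oas1a and Oas1g carry the uncertainty of their shared sequence.

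**Figure D3:**
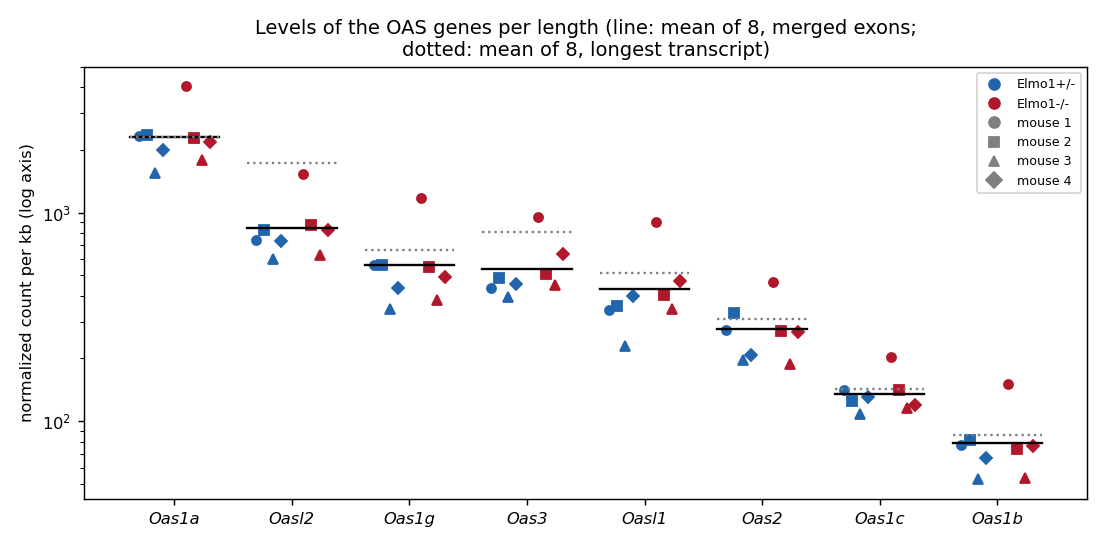
Normalized count per kb of merged exons (log axis) for each OAS gene, ordered by the mean of 8 libraries (line), in Elmo1+/- (blue) and Elmo1-/- (red) libraries, with a dotted line for the mean per kb of the longest transcript. Oas1a lies highest in every library and Oas1b lowest, and the 2 lengths give the most different levels for Oasl2.

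In Elmo1+/- osteoclasts Oas1a made up 45.8% of the summed level per kb of the 8 genes, Oasl2 16.3%, Oas1g 10.5% and Oas3 10.0%. The shares in Elmo1-/- were 43.9%, 16.4%, 10.6% and 11.0%. In Elmo1-/- mouse 1, where the sum of normalized counts was 2.05 times the mean of the other 7 libraries (32090 against 12175 to 17825), Oas1a held 42.8% and Oas1b 1.61%. The members differed in how far that library stood above the mean of the others: Oasl1 and Oas1g at 2.48 times, Oas1b at 2.20, Oasl2 at 2.05, Oas3 at 1.99, Oas1a at 1.95, Oas2 at 1.88 and Oas1c at 1.61.

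To see whether a member differed from its relatives, each was set against the mean of the other 7 in the same library on the log2 scale. The value of Oasl1 differed most between genotypes, from -0.44 ± 0.23 (SD, n = 4) in Elmo1+/- to -0.13 ± 0.13 (SD, n = 4) in Elmo1-/-, a difference of 0.31, with the Elmo1-/- mouse higher in 4 of 4 numbers. Elmo1+/- mouse 4, at -0.11, lay within the Elmo1-/- range of -0.32 to -0.01, and the exact permutation test gave p = 0.0857 (adjusted p = 0.343 over the 8 members). For Oas3 the difference was 0.15, also in 4 of 4 numbers (p = 0.257, adjusted p = 0.343, exact permutation test). In the other direction it was -0.19 for Oas1c and -0.15 for Oas2, each lower in 3 of 4 numbers. Those of Oas1a (-0.07), Oas1b (-0.08), Oas1g (0.01) and Oasl2 (0.02) were smaller. For all 8 members the groups overlapped, and 0 of 8 passed after adjustment.

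**Figure D4:**
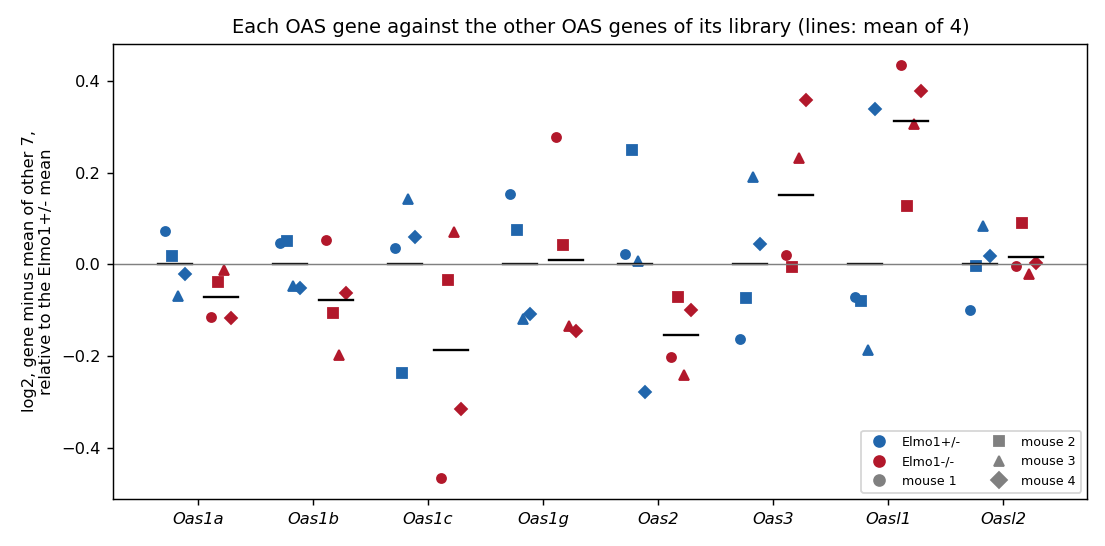
Log2 value of each OAS gene minus the mean of the other 7 in the same library, plotted relative to the Elmo1+/- mean of that gene, for Elmo1+/- (blue) and Elmo1-/- (red) libraries with means of 4 as lines. The Elmo1-/- mean of Oasl1 lies 0.31 above its Elmo1+/- mean and that of Oas1c 0.19 below, with overlapping libraries for each gene.

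Across the 8 libraries the 28 pairs of members had Pearson correlations of 0.790 to 0.996 (median 0.933) on the log2 scale. As these rest largely on Elmo1-/- mouse 1, they were computed again over the other 7 libraries, where they ranged from 0.149 for Oas1c with Oas3 to 0.985 for Oas1a with Oas1g (median 0.748). The points share the library sets and the size factor of each library, and Oas1a with Oas1g also share sequence. Oas1b with Oas1g, which share none of the 75-base windows, had 0.963 over 7 libraries.

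The genes whose pattern was most like the family, by Pearson correlation with the mean z-score of the 8 members over 8 libraries, were Zbp1 (0.994), a sensor of Z-form nucleic acids, Usp18 (0.994), which removes ISG15 from proteins, Xaf1 (0.993), Dhx58 (0.993), the RNA sensor LGP2, and Ifi35 (0.993). After the means of the library sets (numbers 1 and 2, and 3 and 4) were subtracted, the nearest were Ube2l6 (0.996), the conjugating enzyme of ISG15, then Usp18 (0.994), Isg15 (0.993), Xaf1 (0.992) and Zbp1 (0.992). Zbp1 reached 4798 normalized counts in Elmo1-/- mouse 1, against 1154 to 2136 in the other 7 libraries. Without Elmo1-/- mouse 1, Zbp1 (0.981), Usp18 (0.977), Ifi35 (0.975) and Xaf1 (0.973) were still among the 5 nearest of the tested genes, with Gm26637 (0.984) first.

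Of 3 factors that act on interferon-stimulated genes, Stat2 followed the family most closely (0.989 over 8 libraries and 0.946 over 7), ahead of Irf9 (0.970 and 0.892) and Irf7 (0.961 and 0.837). Irf7, a master factor of type I interferon responses, had 25956, 6032, 4959.8 and 7253 in Elmo1-/-, against 9340.2, 9260.1, 4038 and 5759 in Elmo1+/-. Elmo1-/- mouse 1 was at 3.90 times the mean of the other 7 libraries, more than for any OAS gene, while Elmo1-/- mouse 2 lay below both low-numbered controls. Stat2 had 5231, 3138, 2553 and 3246 in Elmo1-/-, against 2918, 3219, 2419.6 and 2632 in Elmo1+/- (log2 fold change 0.30, standard error 0.20). Irf9 had 2279.9, 1984, 1717 and 1858 against 1809, 1879, 1693 and 1827 (log2 fold change 0.11, standard error 0.09).

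Unlike the OAS genes, 3 other genes of the 2-5A pathway were lowest, not highest, in Elmo1-/- mouse 1. Abce1, which recycles ribosomes and inhibits the 2-5A pathway, was lowest in Elmo1-/- mouse 1 (3895, against 4411 to 5988 in the other 7), with a log2 fold change of 0.04 (standard error 0.16). Pde12 and Akap7, which encode 2-5A-degrading enzymes, were lowest in that library too, at 675 and 196, with log2 fold changes of 0.04 (standard errors 0.13 and 0.20). None of these 3 genes passed the threshold, and 0 of 3 had an unadjusted p under 0.05. They also differed between the library sets inside the control genotype. Elmo1+/- means of numbers 1 and 2 were 0.77 (Abce1), 0.78 (Pde12) and 0.70 (Akap7) times those of numbers 3 and 4. The share of all genes that were lowest in Elmo1-/- mouse 1 is not given here. Whether the low rank is particular to these genes was therefore not tested.

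**Figure D5:**
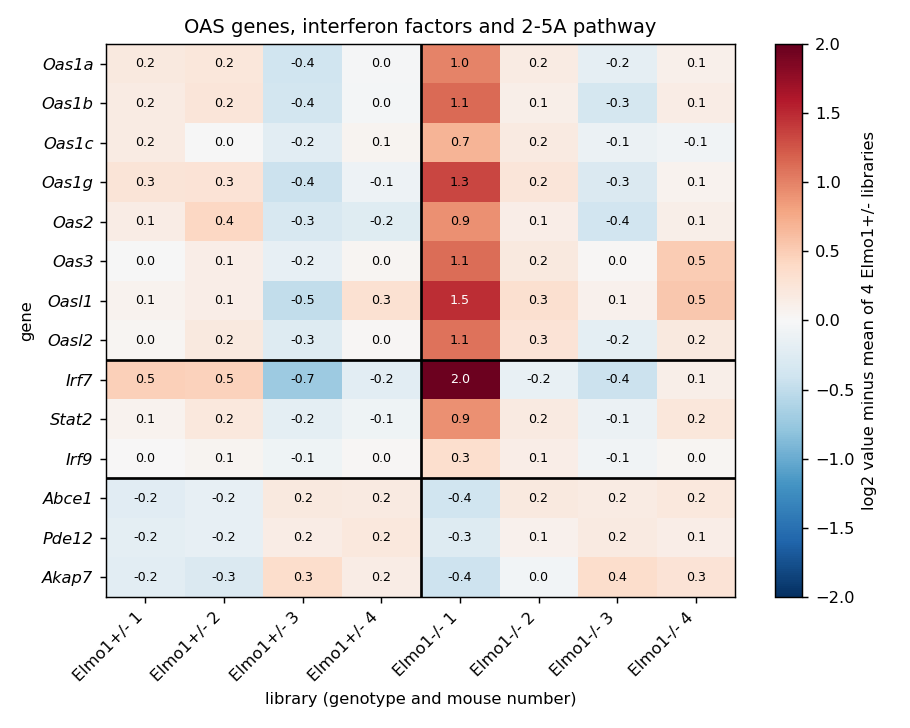
Log2 value of each gene in each library minus its mean over the 4 Elmo1+/- libraries, for the 8 OAS genes (top), 3 interferon factors (middle) and 3 genes of the 2-5A pathway (bottom), with red for higher and blue for lower values. The column of Elmo1-/- mouse 1 is red for the OAS genes and the factors, and blue for Abce1, Pde12 and Akap7. Elmo1+/- mice 1 and 2 also lie below the Elmo1+/- mean for Abce1, Pde12 and Akap7.

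Of the 11 interferon signalling genes, 10 were tested and 0 passed the threshold; Ifnb1, the gene of interferon-β, had at most 3 reads in a library. Their median log2 fold change was 0.11, and 0.02 without Elmo1-/- mouse 1. Of the 20 other interferon-stimulated genes, all were tested, 0 passed, and 5 had an unadjusted p under 0.05 in limma, all higher in Elmo1-/-, where 0.53% of all genes tested were so. Their median was 0.41, and 0.15 without Elmo1-/- mouse 1, where 19 of 20 values were above 0, beside a median of 0.01 over all genes and 7222 of 14040 genes above 0. For 19 of the 20 Elmo1-/- mouse 1 was the highest library, as it was for 27.1% of all genes. The 5 with an unadjusted p under 0.05 in limma were Ifit1, Ifit2, Rsad2, Cmpk2 and Ifi44. All 5 are also in the list the study chose on these samples, as are Ifit3 and Mx2 of the 20, so that list is not independent evidence of their direction.

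Genes beside the members on the chromosome were read as well. Of 25 annotated genes of the table within 100 kb of a member, 6 were tested, 0 passed, and Elmo1-/- mouse 1 was the highest library for 3 of them. Their median log2 fold change was -0.02, with a range from -0.58 to 0.39.

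Markers of other cells were read beside the OAS values of Elmo1-/- mouse 1. Of 10 neutrophil markers 9 were tested and 0 passed, and their summed count was 10394 to 22657 in Elmo1-/- and 12326 to 21553 in Elmo1+/- libraries, with mouse 1 of Elmo1-/- the highest, at 1.55 times the mean of the other 7 libraries. Taken singly, 4 of the 9 tested neutrophil markers were highest in that library, beside 27.1% of all genes, so the sum does not speak for each marker. The sum of 6 macrophage markers, all tested and 0 past the threshold, was 161933 to 196722 in Elmo1-/- and 146751 to 196476 in Elmo1+/- libraries. Of 5 markers of plasmacytoid dendritic cells, the main producers of type I interferon, 3 were tested and 0 passed. Their summed count was 9682 to 25651 in Elmo1-/- and 9812 to 16491 in Elmo1+/- libraries, highest in Elmo1-/- mouse 1 at 2.12 times the mean of the other 7, mostly from Bst2, itself interferon-stimulated, and the defining Siglech was at 0 in 6 of 8 libraries and Klk1 at 0 in all. Of 9 lymphocyte markers 1 was tested, Cd4, and it did not pass. Their sum was 63.4 to 241 in Elmo1-/- and 47.6 to 119.6 in Elmo1+/- libraries, again highest in Elmo1-/- mouse 1, at 2.33 times the mean of the other 7, and Cd3e, Cd8a and Ncr1 had at most 1 read in a library. The summed OAS count of that library stood at 2.05 times the mean of the other 7, and the osteoclast sum at 0.504 times. The part of these cell types in the OAS values was not tested.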

How the data were processed

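RNA was measured in 8 osteoclast cultures, 1 library per mouse, as 75 bp paired-end reads of TruSeq mRNA libraries. The submitters' processing notes name FastQC, STAR, featureCounts and DESeq2, without versions. Genome build, annotation and counting settings were not given in the sources used here. As deposited, the values are a signal, reads per gene after division by a size factor of that library. The authors' own comparison columns of that deposited table (a mean, a log2 fold change with its error, a test score, a p-value and an adjusted p-value) were not used. All values of the 8 libraries were whole reads, to within 0.01 of a read, once the size factor was undone. Of 46517 identifiers, 46005 matched GENCODE M21. Libraries of a genotype were no copies of each other (chi-square per gene 8.58 to 188).

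Differences were tested with limma 3.58.1 (trend and robust settings, R 4.3.3) on log2(normalized count + 1) over genes with at least 10 in at least 4 libraries, Benjamini-Hochberg at 0.05, and for single values with exact two-sided permutation tests (Python 3.11.15, scipy 1.17.1). Adding 1 shrinks the fold changes of low genes. The script was tested on simulated data. Alternatives were edgeR 4.0.16 and DESeq2 1.42.0 on the recovered reads, library totals, TMM, other filters and pseudocounts, each library left out, the replicate number as a block and the library set as a term. Equal totals for the differences within numbers were chosen after seeing the data.

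The same-numbered libraries deviated together from their genotype means (correlations of 0.156 to 0.703 across genes in the 4 pairs), which passes the limit of 0.1 set for treating them as pairs. Opposite genotypes with unlike numbers correlated at 0.026 and 0.691 among numbers 1 and 2 and at 0.561 and 0.614 among 3 and 4, so the deviations followed those library sets as well as the number. The labels do not say what a number stands for.

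The members and gene lists were chosen with earlier results of these data known. Besides the members, values are given for Elmo1, the other Oas1 genes, the 2-5A pathway, Irf7, Stat2 and Irf9, any list gene past the threshold, and the 5 genes most like the family, with and without centring on the library sets. Single values of some list genes are not reported here. Other gene values were named after they were seen.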

Additional observations from a re-analysis of the deposited data

How the results depend on the processing

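No OAS gene passed an adjusted p of 0.05 under any of the 18 alternatives. Over all genes the count past the threshold was 1, and 2 by DESeq2; over libraries left out in turn it was 1 to 2, with 2 without Elmo1+/- mouse 2. Genes at an unadjusted p under 0.05 numbered 133, against 389 with the replicate block, 411 with the library set term, 330 without Elmo1-/- mouse 1 and 478 with no filter. With the replicate block 0 OAS genes and 1 gene in all passed, and the pairing changed no other call. The log2 fold change changed sign without Elmo1-/- mouse 1 for Oas1b, Oas1c and Oas2. Over libraries left out in turn, it was -0.032 to 0.46 for Oas1b, -0.0060 to 0.26 for Oas1c and -0.045 to 0.39 for Oas2, each time lowest without that mouse and highest without Elmo1-/- mouse 3. Within the libraries numbered 3 and 4 it was -0.018 for Oas1c. Under all settings, including the values within a library set, it was 0.31 to 0.79 for Oasl1, 0.25 to 0.61 for Oas3 and 0.10 to 0.56 for Oasl2. Equal library totals raised the members higher in all 4 numbers from 3 to 5. Neighbour pairs of paralogs past the threshold numbered 6 of 7, and 7 with the longest transcripts. Members differing from the mean of the others numbered 0 under each alternative. A median log2 fold change over all genes within 0.01 of 0 was found under every scaling. With 4 mice against 4 the smallest exact p is 0.0286, and the lowest member, Oas1b, rests on 69 to 319 reads per library.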
